A study of Mus musculus with 3 samples.

Results

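Open chromatin was described at 8 mouse genes, *Cish* and *Socs1* to *Socs7*, which encode the suppressor of cytokine signalling family. The genes were chosen by name, and every ATAC-seq peak within 20 kb of a gene body was taken as belonging to its locus. Merging overlapping peaks of the 4 deposited lists gave 44 such regions out of 50965 in the genome. ATAC-seq marks accessible DNA by the insertion of sequencing adapters by a transposase. The cells were pre/pro-B-cell lines grown from bone marrow transduced by retrovirus with the BCR-ABL(p185) oncogene. Their donors were mice carrying on both alleles either wildtype *Cdk6* (*Cdk6*+/+, WT) or the kinase-inactive *Cdk6* K43M (*Cdk6* KM/KM, K43M), and all 4 lines expressed BCR-ABL(p185). There were 2 lines per genotype and 1 library per line, so a genotype difference cannot be told apart from a difference that 2 lines of 1 genotype happened to share. In a bulk library, fewer cells with an open site and less access per cell cannot be told apart either.

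Proteins of this family shut down cytokine signals. A cytokine receptor activates JAK kinases, these phosphorylate STAT factors, and STAT dimers bind the palindromic GAS element, TTCNNNGAA. *Cish* and *Socs1* to *Socs3* are classical STAT-induced genes whose products act back on the receptor or its kinase, whereas *Socs4* to *Socs7* are better known for regulating growth factor and insulin signals. BCR-ABL is known to keep STAT5 active without cytokine. Neither the activity nor the binding of STAT5 was measured here.

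The lists held between 33038 and 39038 peaks, with median fold enrichments from 6.61 to 6.94. Fold enrichment is the ratio of the signal at a peak's summit to the local background in that library. The list called WT unnumbered has no labelled sample and was put among the WT lines by the series' design text. K43M is a point mutation, which peak lists cannot check. Of 8 B-lineage genes, 6 had a promoter peak in all lists, and *Cd79b* and *Rag1* had none in K43M replicate 2. Of 18 genes of T, myeloid, erythroid and non-blood cells none had a promoter peak in all lists, and 14 had none in any list. *Lyz2*, a myeloid gene, had a promoter peak in both WT lists only, as did 0.515% of protein-coding genes. Another myeloid gene, *Cebpe*, had one in all lists but K43M replicate 2, and 3 myeloid genes had none in any list. The part of such cells in the results was not tested.

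Matches to the GAS pattern in the loci are shown first, because it is the sequence that STAT dimers recognise. The pattern equals its own reverse complement, so both strands were searched at once. Open regions of the 8 loci held 20 matches in 13 regions, and 19 matches lay in regions with a peak in every list. Sequences are from GRCm38 (mm10), run 5′ to 3′ on the strand of the gene, and have each match in capitals. The promoters of *Cish* and *Socs2* had paired matches, and that of *Socs3* a single match close to a start:
*Cish*, chr9:107296654-107296683, plus strand: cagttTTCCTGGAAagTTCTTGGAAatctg
*Cish*, chr9:107296762-107296791, plus strand: ggTTCTAGGAAgatgaggcTTCCGGGAAgg
*Socs2*, chr10:95416899-95416928, minus strand: gcggaTTCCTGGAAagTTCCTGGAAagcgg
*Socs3*, chr11:117969229-117969258, minus strand: cggccgggcagTTCCAGGAAtcggggggcg

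The first *Cish* pair was centred 47 and 36 bp before an annotated start of the gene and the second 58 and 75 bp after it, all in the annotated UTR of a longer transcript. The *Socs2* pair was centred 272 and 261 bp after the gene start, in an intron. The *Socs3* match was centred 57 bp before a start, and the annotation gives an intron of a longer transcript there. A further match in that region was centred 330 bp before the same start. The promoter regions of *Socs1* and *Socs7* also held a match, 799 and 1019 bp from the summit. These were centred 449 bp before the *Socs1* start and 700 bp after the *Socs7* start. The first *Cish* pair and the *Socs2* pair shared their layout, with starts 11 bp apart and the same 2 bases between the matches. That spacing was chosen after the sites were seen. It was found in 6 of 50867 open regions on the assembled chromosomes (0.0118%). The other 4 were at the promoters of *Tspan31* and *Dtd2* and at 2 regions on chromosomes 13 and 14 outside promoters. The *Cish* promoter had 4 matches within 250 bp of its summit, a number reached by 10 of the 50867 regions, itself included. That cut-off was the count of the *Cish* promoter and was also chosen after the sites were seen.

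Matches in flanking regions are shown with the 101 bases around the summit of the highest peak, since these windows carry the centre of the open site. They came from an intergenic region 17 kb after the *Cish* start, an intergenic region 13.2 kb after the *Socs1* start, an intron of *Socs2* 19.8 kb after its start and an intergenic region 6.2 kb before the *Socs3* start:
*Cish*, chr9:107312953-107313053, plus strand: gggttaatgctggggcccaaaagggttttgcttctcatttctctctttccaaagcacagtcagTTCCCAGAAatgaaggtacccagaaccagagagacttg
*Socs1*, chr16:10772272-10772372, minus strand: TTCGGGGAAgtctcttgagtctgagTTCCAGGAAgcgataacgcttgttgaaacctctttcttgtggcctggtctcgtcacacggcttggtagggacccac
*Socs2*, chr10:95397366-95397466, minus strand: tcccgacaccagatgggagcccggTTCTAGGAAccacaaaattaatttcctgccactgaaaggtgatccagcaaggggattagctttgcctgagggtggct
*Socs3*, chr11:117976210-117976310, minus strand: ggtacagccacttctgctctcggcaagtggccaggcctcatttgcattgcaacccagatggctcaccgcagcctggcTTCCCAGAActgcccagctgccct

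A match within 100 bp of the summit was found in 6 of the 44 regions, beside 6.82% of all open regions on the assembled chromosomes. All 6 were among the 29 regions of *Cish* and *Socs1* to *Socs3* and had a peak in every list. None of the 15 regions of *Socs4* to *Socs7* had one, also within 250 bp, where 12 of the 29 did. Over all open regions the share within 250 bp was 16.0%. A match is a stretch of letters and not a measured binding site. RefSeq promoters of GRCm38.p6, 300 bases each, were at hand for *Cish*, *Socs1*, *Socs3* and *Socs4*, and those of *Cish* and *Socs3* held a match, as did 8.30% of all 32851 promoters.

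The loci were more densely covered with open regions than most. They held a median of 8.25 open regions per 100 kb, beside 3.63 for all protein-coding genes with the same flanks. *Socs3* was the densest with 20.5 per 100 kb (9 regions), followed by *Cish* with 15 (7 regions) and *Socs1* with 13.9 (6 regions). *Socs2* had 9.75 (7 regions), *Socs4* 6.76 (4 regions), *Socs7* 6.58 (5 regions) and *Socs5* 5.70 (4 regions). *Socs6* was the sparsest with 0.662, from 2 regions in a locus of 302 kb. With their flanks the loci measured 43.3 kb (*Socs1*) to 302 kb.

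Every one of the 8 genes had a promoter peak in all 4 lists, whereas 47.6% of 21938 protein-coding genes did. Promoter windows reached 2000 bp before and 200 bp past each annotated start. The median fold enrichment of the 8 promoters was 8.60, 8.40, 9.26 and 8.79 in WT unnumbered, WT replicate 2, K43M replicate 1 and K43M replicate 2. Over all protein-coding genes with a promoter region in all lists it was 10.0, 10.0, 10.3 and 9.80. By this ratio the medians of the 8 promoters lay below those of open promoters in general in every list, which was not tested. By percentile of significance within a list, the medians of the 8 promoters were 79.9, 85.4, 90.4 and 87.0. For open promoters in general they were 82.8, 83.6, 85.5 and 83.9, so by percentile the 8 promoters lay lower in WT unnumbered only.

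Promoters of the STAT-induced genes come first, with values always in the order WT unnumbered, WT replicate 2, K43M replicate 1 and K43M replicate 2. *Cish*, whose product binds receptors that activate STAT5, had fold enrichments of 8.71, 8.85, 8.61 and 8.13 at chr9:107296207-107297362. Both K43M values lay just below both WT values. *Socs1*, a direct inhibitor of JAK kinases, had 6.81, 7.23, 7.0 and 6.83 at chr16:10784907-10786180, and the groups overlapped. *Socs2*, a regulator of growth hormone signalling, had 5.82, 6.97, 6.20 and 6.86 at chr10:95416242-95417527, again with overlap. A second region of the *Socs2* promoter lay next to it at chr10:95415542-95416133. Its values of 2.71, 2.81, 3.16 and 3.76 had the lowest mean (3.11) of the member regions with a peak in every list, and were higher in both K43M lines. *Socs3*, which blocks JAK kinases at gp130 receptors, had 6.10, 7.80, 7.98 and 7.07 at chr11:117968886-117970195, with overlap.

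Promoters of the other 4 genes follow. *Socs4*, whose promoter region at chr14:47276055-47277422 is shared with the divergent gene *Wdhd1*, had 8.97, 10.8, 12.7 and 10.6. *Socs5*, a regulator of epidermal growth factor receptor, had 8.49, 9.76, 10.9 and 10.4 at chr17:87106705-87107876. *Socs6*, which binds insulin signalling components, had 9.65, 11, 12.1 and 10.8 at an internal annotated start, well after the gene start. *Socs7*, its closest relative, had 9.69, 7.95, 9.91 and 9.45 at chr11:97361873-97363420. In each list the fold enrichments of *Socs4* to *Socs7* lay above those of *Socs1* to *Socs3*, an order noticed after the values were seen. *Cish* lay above *Socs5* in WT unnumbered and above *Socs7* in WT replicate 2. The order was one of the ratio and did not hold for the number of fragments over the summit, described below. *Socs2* had 84, 92, 82 and 68 fragments, above *Socs5* (44, 56, 76 and 57) and *Socs7* (61, 44, 64 and 54) and below *Socs6* (122, 117, 98 and 76).

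**Figure D1:**
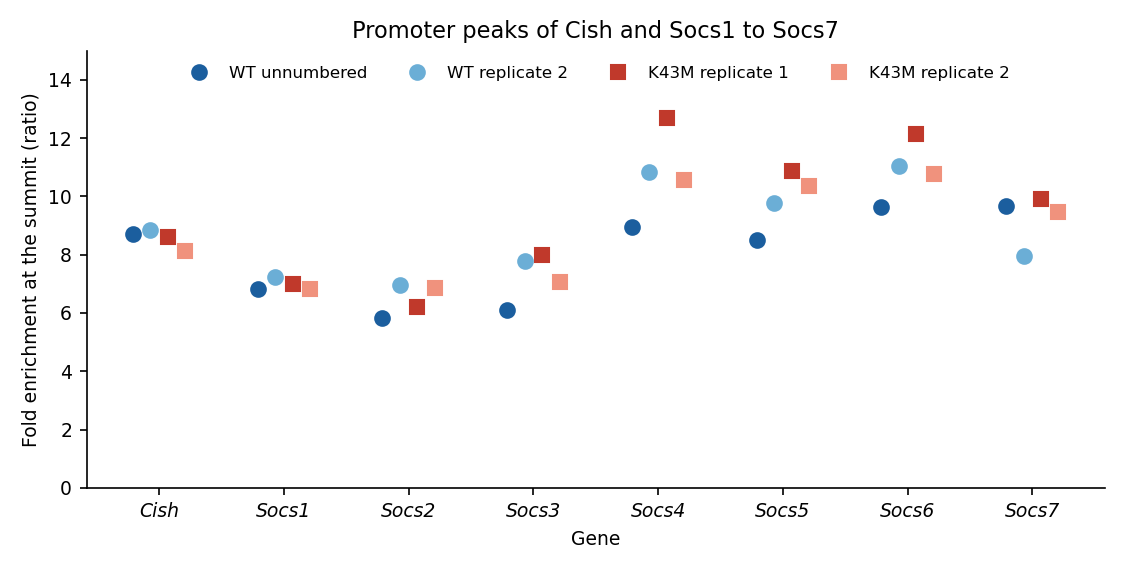
Fold enrichment (ratio, y axis from 0) of the main promoter peak of each of the 8 genes (x axis), with 1 point per list, circles for WT and squares for K43M. *Socs1* had the narrowest span, from 6.81 to 7.23, and *Socs4* the widest, from 8.97 in WT unnumbered to 12.7 in K43M replicate 1.

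None of these 8 promoter regions differed between genotypes by the test. The log2 difference of K43M minus WT was -0.07 (SE 0.14) for *Cish*, -0.02 (SE 0.15) for *Socs1*, 0.04 (SE 0.17) for *Socs2* and 0.13 (SE 0.17) for *Socs3*. It was 0.23 (SE 0.16) for *Socs4*, 0.22 (SE 0.15) for *Socs5*, 0.15 (SE 0.15) for *Socs6* and 0.14 (SE 0.16) for *Socs7*. The smallest adjusted p among all member regions was 0.219 (limma over 21012 regions with a peak in every list, Benjamini-Hochberg). These values are centred on the median region of each list.

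Of the 44 member regions 25 had a peak in all 4 lists, beside 41.2% of all open regions. Both WT lists and no K43M list had a peak in 3 regions (4.51% of all regions), and both K43M lists and no WT list in 3 (7.64% of all regions). The other 13 comprised 6 with a peak in 1 list, 4 with a peak in 1 list of each genotype and 3 with a peak in 3 lists. Regions in all lists had a median fold enrichment of 7.71, and the others 5.04. Cut to the same number of peaks, the lists gave 3 WT-only and 2 K43M-only of 44 regions. Over all 47264 regions they then gave 2745 WT-only and 2976 K43M-only. With WT unnumbered left out, 4 of 43 regions were WT-only and 4 K43M-only, since 1 list then stood for WT. Of all 48408 regions in that setting, 5559 were WT-only and 5277 K43M-only.

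At the *Socs3* locus 2 regions had peaks in WT lines only. An intergenic region 4.9 kb before the start (chr11:117974770-117975091) had fold enrichments of 5.03 and 5.33. A further intergenic region 17.7 kb after the start (chr11:117952235-117952698) had 6.28 and 7.07. The nearest K43M peaks lay 989 and 1504 bp away. A WT-only region near *Socs7* (chr11:97401066-97401533), 38.7 kb after the start and past the end of the gene, had 5.96 and 4.12. It lay 380 bp from a peak of K43M replicate 2.

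K43M-only regions were found at *Cish*, *Socs2* and *Socs7*. That of *Cish* (chr9:107297999-107298245) lay in an exon, 1065 bp before an internal start, with fold enrichments of 3.0 and 3.58. It thus lay in a promoter window of *Cish* itself, apart from the main promoter region. That of *Socs2* (chr10:95398626-95398952) lay in an intron 18.4 kb after the start, with 4.33 and 3.89. The third, at the *Socs7* locus (chr11:97415356-97415719), lay in the promoter window of the neighbouring gene *Arhgap23* and had 6.38 and 6.40. These regions stood between percentiles 11.1 and 47.5 of their lists by significance, and the WT-only ones between 8.82 and 56.8, so most of them were among the weaker peaks of a library.

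**Figure D2:**
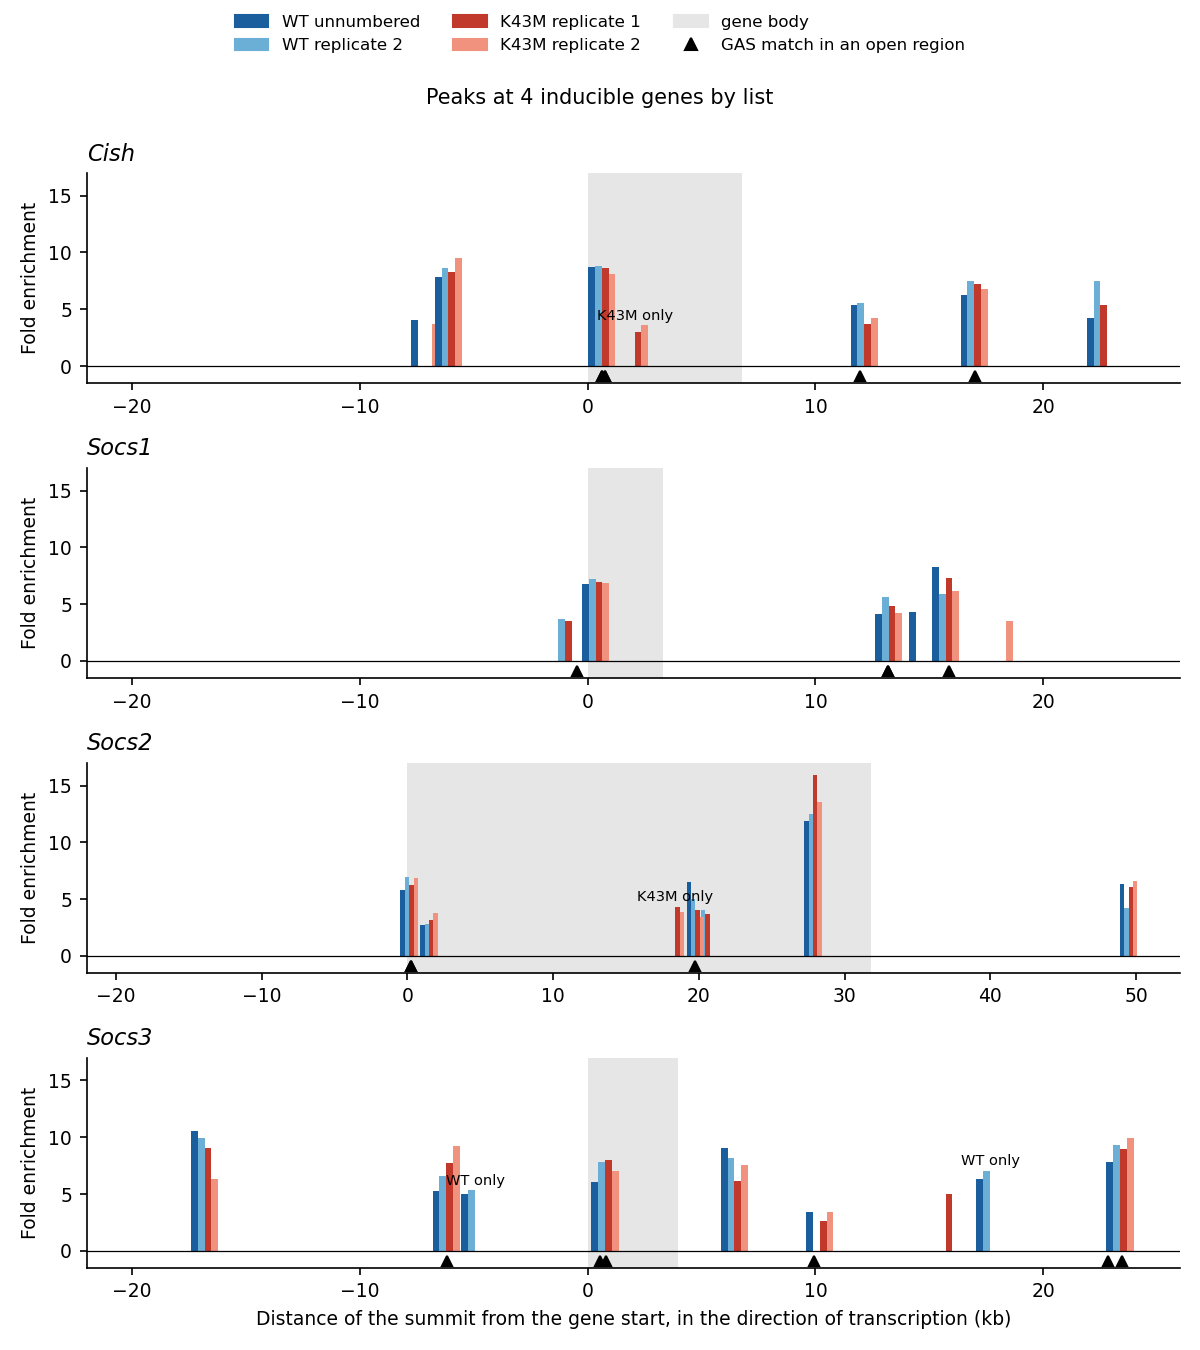
Fold enrichment (ratio, y axis) of every peak at *Cish*, *Socs1*, *Socs2* and *Socs3* against the distance of its summit from the gene start in kb (x axis), with the 4 lists as bars drawn side by side, gene bodies in grey and GAS matches as triangles. The promoter bars stand at 0 to 1.5 kb in all lists, the highest bars are those of the *Socs2* intron at 27.8 kb, and both WT-only regions shown belong to *Socs3*.

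Outside the members' own promoters, 3 regions in all lists lay in promoters of neighbouring genes and 13 outside promoters. The highest of the whole family was an intronic region of *Socs2* at chr10:95388968-95389600, 27.8 kb after the gene start and 3.6 kb after an internal start. Its fold enrichments of 11.9, 12.5, 15.9 and 13.5 were higher in both K43M lines, with a log2 difference of 0.27 (SE 0.15). It had no GAS match in its bounds. By the mean over the lists, the highest flanking region of *Cish* was the promoter of the neighbouring kinase gene *Mapkapk3* (7.88, 8.66, 8.24 and 9.56), and that of *Socs1* lay 15.7 kb after its start (8.25, 5.89, 7.27 and 6.16). For *Socs3* a region 23.4 kb after the start (7.82, 9.33, 8.94 and 9.94) and the promoter of the neighbouring gene *Pgs1* (10.5, 9.96, 9.07 and 6.33) were nearly level, with means of 9.01 and 8.97. For *Socs4* it was the *Mapk1ip1l* promoter (9.28, 9.46, 7.78 and 10.6), for *Socs5* an intronic region 11 kb after its start (8.54, 8.29, 9.02 and 8.68), and for *Socs7* a region 38.0 kb after its start (7.29, 8.43, 7.92 and 7.37). The *Socs6* intron had a weak peak in 3 lists only (5.23, 5.21 and 4.96, none in K43M replicate 1). Own promoters in all lists were richer in CpG than the 13 regions outside promoters, with a median observed-to-expected ratio of 0.741 (range 0.665 to 0.890) beside 0.291 (range 0.0741 to 0.745).

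Regions whose fold enrichment differed most were flanking regions, and none passed the adjusted threshold. In an intron of *Socs2*, the region with a GAS match 19.8 kb after the start, fold enrichments were 6.47, 5.02, 4.02 and 3.44. Both K43M values lay below both WT values, by 0.61 on the log2 scale (log2 difference -0.61, SE 0.17, limma adjusted p = 0.219). At *Socs3*, the region with a GAS match 6.2 kb before the start had 5.26, 6.60, 7.75 and 9.22. It was higher in both K43M lines (log2 difference 0.52, SE 0.19, limma adjusted p = 0.318). The *Cish* region 12.1 kb after the start had 5.41, 5.53, 3.72 and 4.22 (log2 difference -0.46, SE 0.16, limma adjusted p = 0.306). The promoter of *Pgs1*, 16.8 kb before *Socs3*, was lower in both K43M lines (log2 difference -0.43, SE 0.18, limma adjusted p = 0.378).

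On the centred scale the groups did not overlap in 7 of the 25 regions with K43M higher and in 6 with K43M lower. All regions gave 21.3% higher and 21.0% lower. An unadjusted limma p under 0.05 was reached by 4 of the 25 regions, beside 12.4% of all regions. The adjusted threshold of 0.05 was passed by 0 of the 25 and by 0.00% of the 21012. The median log2 difference was 0.04 over the 25 regions and 0.00 over all, and 95% of all regions lay between -0.53 and 0.58. The exact permutation test of 2 lists against 2 has too few arrangements to reach 0.05, so no single value was tested in that way.

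Fold enrichment is a ratio, so signal that rises at the summit and around it alike leaves it unchanged. Both quantities could be recovered from the deposited columns: the number of fragments over the summit (read ends as extended by the peak caller) and the number of read ends in the 10 kb around it, peaks included. At *Socs3* the read ends passed the test between genotypes, whereas neither the fragments nor the ratio did. At the *Socs3* promoter the summit had 34, 50, 92 and 66 fragments, more in each K43M line than in each WT line. The 10 kb around it had 237, 277, 533 and 424 read ends. Fragments at the summit and read ends in the 10 kb window, which includes the promoter peak, were thus both higher in K43M lines. Read ends outside the peak were not counted apart. The ratio was 6.10, 7.80, 7.98 and 7.07.

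The same held 5.7 kb further downstream. At the intergenic region 6.4 kb after the *Socs3* start (chr11:117963218-117963936) the summit had 50, 45, 61 and 68 fragments and the 10 kb around it 232, 232, 457 and 408 read ends. There the ratio was lower in both K43M lines (9.04, 8.16, 6.11 and 7.53), while the fragments were higher. The 10 kb windows of these regions overlap and share reads. The centred log2 difference in read ends was 1.02 (SE 0.16, limma adjusted p = 0.0304) at the promoter and 1.02 (SE 0.13, limma adjusted p = 0.0218) at the downstream region. Fitting read ends was chosen after the values were seen.

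Centring mattered little to the size: list medians of log2 read ends differed by -0.13 (K43M minus WT; -0.11 for fragments), and without centring the differences were 0.89 (adjusted p = 0.0052) and 0.90 (adjusted p = 0.0049) by limma. With a trended variance the limma adjusted p was 0.0104 at the promoter and 0.0074 at the downstream region. In the settings that follow the promoter call was lost in most and the downstream call in some, with an adjusted p above 0.05. The difference lay between 0.84 and 1.20 at the promoter with any 1 library left out, where the adjusted p was 0.0889 without WT unnumbered, 0.0353 without WT replicate 2, 0.0603 without K43M replicate 1 and 0.0574 without K43M replicate 2. At the downstream region it lay between 0.95 and 1.09, and the call was lost only without WT unnumbered. Quantile normalization gave 1.0 (adjusted p = 0.0851) and 1.01 (adjusted p = 0.0772), and no region was called then. At the promoter the fragments over the summit differed by 1.02 (SE 0.27, limma adjusted p = 0.123).

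**Figure D3:**
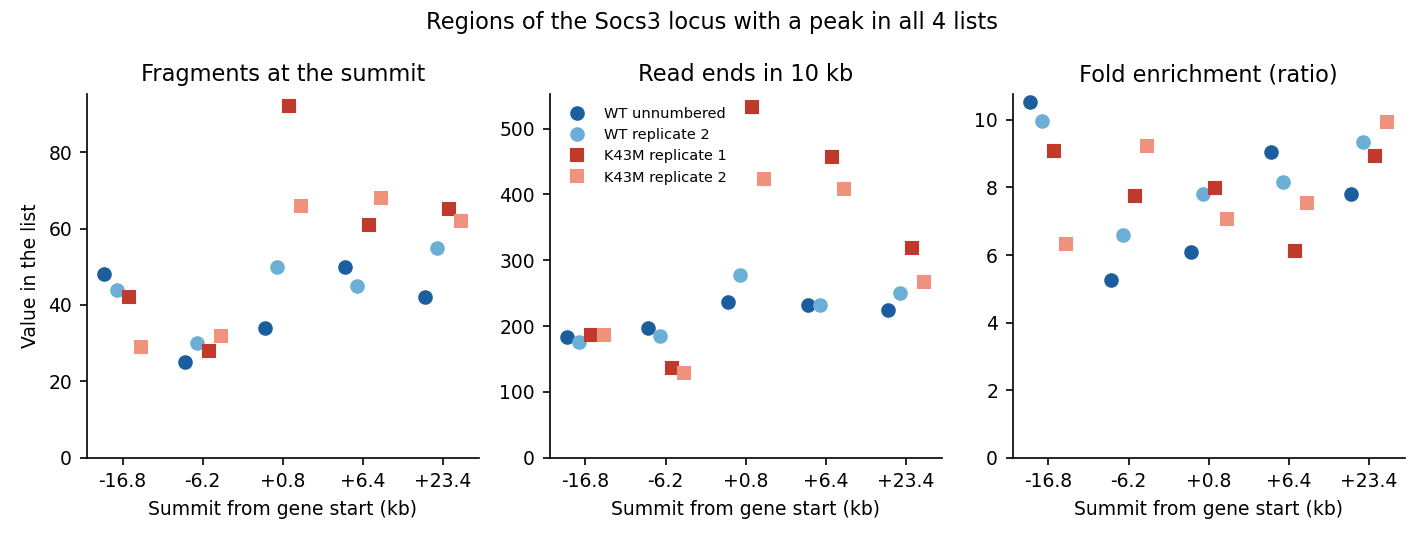
Fragments at the summit, read ends in 10 kb and fold enrichment (y axes, each from 0) for the 5 *Socs3* regions in all lists, by distance of the summit from the gene start in kb (x axis), with circles for WT and squares for K43M. At the promoter (0.8 kb) and the next region (6.4 kb) read ends were 408 to 533 in K43M lines and 232 to 277 in WT lines, while at -6.2 kb they were 129 and 137 in K43M lines beside up to 197 in WT lines.

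The difference was not seen over the whole locus. At the region 6.2 kb before the start, 7.0 kb from the promoter summit, read ends were 197 in WT unnumbered, with a geometric mean of 191 over the WT lines, and 137 and 129 in the K43M lines, so that both were lower (log2 difference -0.40, SE 0.13, limma adjusted p = 0.142). At the *Pgs1* promoter they were 183, 176, 187 and 187 (0.18, SE 0.14). On the far side, 23.4 kb after the start, they were 225, 250, 319 and 267 (0.42, SE 0.15, limma adjusted p = 0.161). The median difference of the 1448 regions of chromosome 11 was 0.04, so the *Socs3* promoter stood 0.98 above its chromosome. The number of copies of this stretch in each line was not measured.

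Over the 25 member regions read ends were higher in both K43M lines in 17 and lower in both in 5, beside 26.4% and 27.4% of all regions, on the centred scale. These counts depended on the centring: as recovered, read ends were higher in both K43M lines in 9 of the 25 and lower in both in 3, beside 12.7% and 34.1% of all regions. Several of the 25 are neighbours and share windows. The adjusted threshold was passed by 2 of the 25, both named above, and by 5.51% of all regions. An unadjusted p under 0.05 was reached by 9 of the 25 and by 22.6% of all regions. For fragments over the summit the counts were 12 higher and 4 lower (24.4% and 24.0% of all regions), and 0 of 25 passed the adjusted threshold (0.167% of all regions), while 3 had an unadjusted p under 0.05, beside 17.6% of all regions. As recovered, fragments were higher in both K43M lines in 6 and lower in both in 5 (13.3% and 26.3% of all regions).

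**Figure D4:**
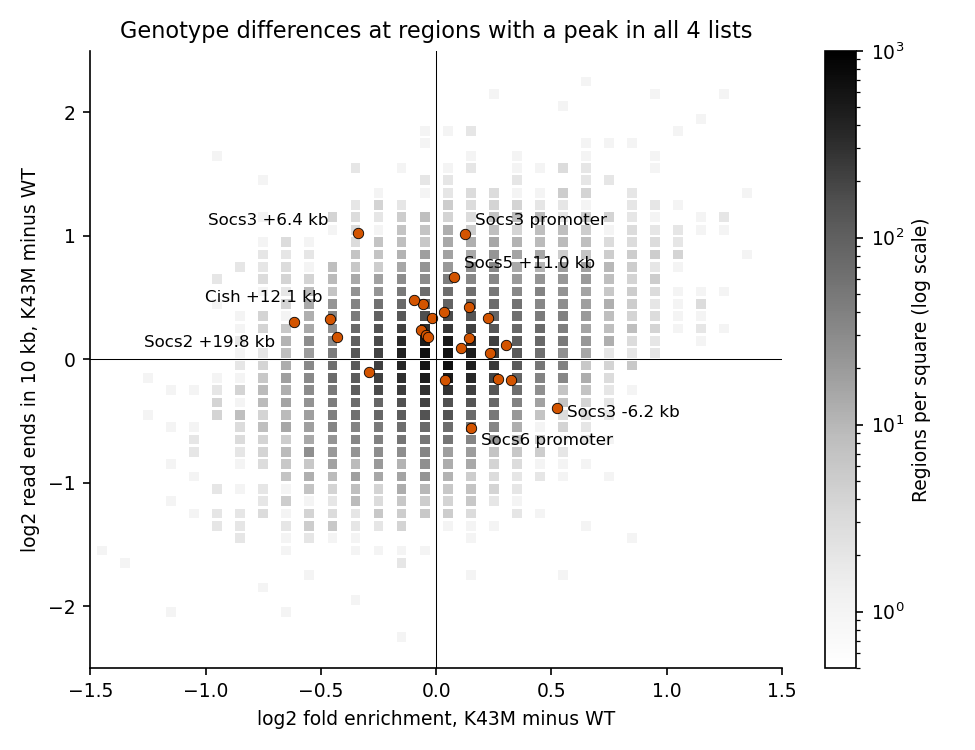
Difference between genotypes in log2 fold enrichment (x axis) against that in log2 read ends in 10 kb (y axis), both K43M minus WT and centred, for 21012 regions in all lists (grey squares, darker for more regions on a log scale) and for the 25 member regions (orange points). The *Socs3* promoter and the region 6.4 kb after its start both stand at 1.02 on the y axis, with 98.9% of all regions below them, but at 0.13 and -0.34 on the x axis.

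*Socs5* and *Socs6* were next by read ends. At the *Socs5* intronic region 11 kb after the start read ends were 196, 143, 277 and 215, higher in both K43M lines (log2 difference 0.67, SE 0.16, limma adjusted p = 0.0679), and fragments were 41, 31, 58 and 45. At the *Socs6* promoter they were 587, 484, 358 and 307, lower in both K43M lines (log2 difference -0.56, SE 0.13, limma adjusted p = 0.0649), and fragments were 122, 117, 98 and 76. The *Socs6* gene lies on chromosome 18, whose 662 regions had a median difference of -0.47, so that its promoter differed from its own chromosome by -0.09. Both *Socs2* promoter regions, whose 10 kb windows overlap, had the most read ends of all members, with 680, 617, 619 and 453 at the main region and 687, 626, 630 and 455 at the second. At the *Cish* promoter read ends were 375, 334, 409 and 356 (log2 difference 0.23, SE 0.13), and at the *Socs1* promoter 383, 344, 436 and 404 (0.33, SE 0.13, limma adjusted p = 0.193).

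The rest of the pathway was compared through a list of 56 genes. A promoter peak was present in all lists for 49 of them, beside 47.6% of protein-coding genes. All 4 JAK family kinase genes, all 12 genes of other negative regulators such as the phosphatase gene *Ptpn6*, all 4 genes of the ubiquitin ligase that SOCS proteins recruit and all 11 STAT5 target genes such as *Pim1* and *Bcl2l1* were among them. Of 7 STAT genes 6 were, and *Stat4* had no promoter peak in WT unnumbered. Among 18 receptor genes 12 had a promoter peak in all lists, while *Epor* and *Prlr*, receptors of erythropoietin and prolactin, had none in any list.

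One pathway gene differed by genotype in the presence of a peak. *Il6st*, which encodes the gp130 receptor chain that SOCS3 binds, had a promoter peak in K43M replicates 1 and 2, with fold enrichments of 10.1 and 8.28, and in neither WT list. K43M-only promoters made up 2.00% of protein-coding genes and WT-only promoters, of which the list had 0, made up 0.515%. In lists cut to the same number of peaks, 340 of the 21938 genes were K43M-only and 142 WT-only. By fold enrichment, 0 of the 49 promoter regions in all lists had an unadjusted limma p under 0.05, beside 12.4% of all regions. The adjusted threshold was passed by 0 of the 49 and by 0.00% of all regions. By read ends in 10 kb, 2 of the 49 passed it, beside 5.51% of all regions, and neither did after quantile normalization (adjusted p = 0.0832 and 0.0798) or with any 1 library left out. At *Il21r*, the receptor of interleukin 21, read ends were 323, 314, 510 and 449, higher in both K43M lines (log2 difference 0.71, SE 0.13, limma adjusted p = 0.0358, and 0.117 without centring). At *Pias2*, an inhibitor of STAT factors, they were 426, 360, 242 and 199, lower in both (log2 difference -0.71, SE 0.13, limma adjusted p = 0.0375, and 0.0104 without centring). *Pias2* lies on chromosome 18 as *Socs6* does, and differed from the median of that chromosome by -0.24. *Il21r* differed from the median of its own, chromosome 7, by 0.67.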

How the data were processed

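ATAC-seq of 4 BCR-ABL(p185) lines was analysed from the deposited narrowPeak lists, 1 per library. Per the labels and the study's methods, the authors used Trimmomatic 0.36 to trim reads, mapped these to mm10 with BWA 0.7.15, filtered them with bedtools and SAMtools 1.3.1 and called peaks per library with MACS2 2.1.0, with reads shifted and extended around the insertion. The authors deposited the fold enrichment of each peak, a ratio to the local background of its library, and its −log10 p-value and −log10 q-value. No read totals were given. Depth is therefore known only through the recovered genome-wide background, which was 48.4 to 65.3 read ends per 10 kb, and intervals from counts were not formed.

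Groups came from the labels, except that of WT unnumbered, which came from the series' design text. Replicate numbers name lines. Peaks overlapping by 1 bp were merged over the lists. Genes, starts and annotation were those of GENCODE mouse release 21 on GRCm38, a later release than the 13 the authors used. The pileup at the summit and the read ends in the 10 kb around it were solved from fold enrichment and −log10 p by the Poisson model of MACS2, for 100% of peaks in each list. All local backgrounds above the genome-wide one were whole read ends within 0.05.

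K43M was compared with WT by limma on log2 fold enrichment over 21012 regions with a peak in every list, taking the highest peak of a list in a region and centring each list on its median, with Benjamini-Hochberg adjustment at 0.05. The p-values rest on the spread between 2 lines per genotype, moderated towards the spread over all regions tested. GAS matches were searched around the summit of the highest peak. The code was tested on simulated data. Named regions were those at member promoters, those confined to 1 genotype by the strict rule and the highest flanking region of each gene, and regions with a GAS match or with the largest differences were added after their values were seen. The genes, the pathway list and the markers were chosen with earlier results of these data known. The result of a single receptor gene in the pathway list is not reported here. Python 3.11.15 (numpy 2.4.6, pandas 2.3.3, pysam 0.24.0), R 4.3.3, limma 3.58.1 and samtools 1.23.1 were used. Other settings tried concerned the q threshold, lists of equal length, the overlap rule, the flanks, the promoter window, the centring, the quantity fitted, the motif window and the libraries.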

Additional observations from a re-analysis of the deposited data

How the results depend on the processing

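Most counts kept within 1.5 times their values (81 of 96 alternatives). With 50 kb on each side the loci held 77 regions, of which 40 were in every list and 7 were K43M-only. Of all 50965 regions, 21012 were in every list and 3895 K43M-only. Leaving out 1 list gave 42 to 43 regions, 25 to 27 in every list, 4 WT-only and 3 to 6 K43M-only, the 6 without K43M replicate 2. Over the whole genome, 21806 to 23243 of 46265 to 48408 regions were then in every list. WT-only were 3024 to 5559 and K43M-only 5277 to 9433, the 9433 also without K43M replicate 2. All 8 promoters kept a peak in all lists in every setting. Pathway promoters were WT-only in 0 to 1 and K43M-only in 1 to 2 genes with a list left out. Of all 21938 protein-coding genes, 151 to 254 were then WT-only and 617 to 767 K43M-only. Over all regions the fit called 35 by summit pileup, 1157 by read ends in 10 kb, 23 with a trended variance and 0 to 30 with a list left out (24 without WT unnumbered, 30 without WT replicate 2). Read ends called 1795 regions without centring, 0 after quantile normalization and 169 to 687 with a list left out. Read ends called 2 member regions and every other quantity or setting 0. The GAS count was 12 within 250 bp, and 2 with starts 11 bp apart.

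Fitted by summit pileup, the log2 difference turned from the sign it had by fold enrichment at the promoters of *Cish* (0.13), *Socs1* (0.27), *Socs2* (-0.13) and *Socs6* (-0.36) and at the *Socs3* region 6.4 kb after the start (0.55). By read ends it turned at those of *Cish* (0.23), *Socs1* (0.33), *Socs2* (-0.17) and *Socs6* (-0.56). It also turned at the *Cish* region at 12.1 kb (0.33), the *Socs2* regions at 27.8 kb (-0.16) and 19.8 kb (0.30) and the *Socs3* regions at 6.4 kb (1.02), -6.2 kb (-0.40) and -16.8 kb (0.18). These are other quantities than the ratio. With 1 list left out the fold enrichment difference ranged from -0.066 to 0.026 at the *Socs1* promoter, -0.10 to 0.17 at that of *Socs2* and -0.055 to 0.31 at that of *Socs3*, with both signs. An arm with 1 list was assumed to vary like the other.

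No paired analysis was possible because the replicate numbers name separate lines and the genotypes share only 1 labelled number. The lists give no read totals, so differences at weak peaks could not be set against depth, and absence of a peak is not absence of access.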
